A study of Mus musculus with 7 samples.

Results

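The 10 genes described here encode the interleukin-6 receptor chains (Il6ra and Il6st), a pair of Janus kinases (Jak1 and Jak2), 4 signal transducers and activators of transcription (Stat3, Stat5a, Stat5b and Stat6) and a pair of suppressors of cytokine signalling (Socs1 and Socs3). They were chosen by name, as every probe whose annotated symbol was one of the 10, which gave 14 of 23978 probes and 10 of 14739 named genes. RNA came from tumours that J558 cells, an IgA-secreting mouse myeloma (plasma cell) line, had formed under the skin of the neck of male BALB/c mice, 10 weeks old by the labels. The mice drank distilled water (control, n = 4 arrays) or oil palm phenolics (OPP, n = 3 arrays) at 1500 ppm gallic acid equivalents, and tumours were taken 4 weeks after inoculation. All mice carried the same line and ate standard chow, and each tumour sample held host cells beside the myeloma cells. The authors removed outlier samples before deposit, and the labels do not say which mouse each replicate came from, so that p-values speak only of the spread among samples.

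Interleukin-6 binds its receptor chain Il6ra, and the complex joins Il6st (gp130), the chain that carries the signal into the cell. Janus kinases bound to gp130 then add phosphate to STAT proteins, above all Stat3, which pair, enter the nucleus and switch on genes, among them Socs3, whose product blocks the receptor and the kinases and so ends the signal. Interleukin-6 is known as a growth and survival factor of plasma cells and of plasma cell tumours. Stat5a and Stat5b answer to interleukin-2, growth hormone and related cytokines, and Stat6 answers to interleukin-4 and interleukin-13. These arrays measure transcript signals and not the phosphorylation on which the pathway turns.

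Values are normalised signals on a linear scale. A signal was called above background when it exceeded a limit set from the noise of its array (the level that noise alone would pass with a one-sided probability of 0.01), 20.7 to 26.7 over the 7 arrays, and a probe was tested when it did so on every array of at least 1 group. By this rule 9 of the 14 probes, for 8 of the 10 genes, were tested, each of them above background on all 7 arrays. The probes of Il6st and Stat5b, and the dimmer probes of Il6ra, Stat6 and Jak2, were not tested. Log2 changes are OPP minus control with values under 10 set to 10, and adjusted p-values are those of limma over all 10366 tested probes.

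No probe of the 10 genes differed between the groups after adjustment (0 of 9 at an adjusted p under 0.05 in limma, beside 0% of all probes tested). One of the 9, that of Stat5a, had an unadjusted p under 0.05, beside 9.36% of all probes tested (5.81% higher and 3.55% lower in OPP tumours), and for 0 of the 9 were the groups free of overlap, beside 9.70% of all probes tested. These shares lie near or under the background. Of the 8 tested genes, each by its brightest probe, 4 had a log2 change above 0 and 4 below, beside 48.9% of 7188 named genes above 0, and the median was 0.029, beside -0.0041 over those genes. Stat3 was lowest of the 8 and Stat5a highest.

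Stat3, the factor that carries interleukin-6 and interleukin-10 signals to the nucleus, was read by a pair of probes. The study, from these same arrays, reports Stat3 as lower in OPP tumours, at P under 0.05 in the Illumina custom error model. Its change here is thus not independent evidence, and the limma tests below use another criterion. By the brightest probe its signal was 1037, 1340, 1164 and 914 on the control arrays, in the order of replicates 1 to 4, and 936, 920 and 697 on the OPP arrays, replicates 1 to 3. Control replicate 4 lay below OPP replicates 1 and 2, so the groups overlapped, and OPP replicate 3 was the lowest of all. The means were 1114 ± 182 (SD, n = 4) and 851 ± 133 (SD, n = 3), a log2 change of -0.39 (SE 0.17, 95% interval -0.77 to 0.00036, limma adjusted p = 0.531). The second probe had 1103 ± 218 and 829 ± 99.5, a log2 change of -0.40 (SE 0.17, limma adjusted p = 0.531). Both probes thus lay lower in OPP tumours by a fold of 1.31 and 1.32, with an unadjusted p of 0.0502 each. Permuting the arrays over all 35 splits, as an exact two-sided test, gave p = 0.171 for each probe, with 0.0571 as the smallest p this design allows. Without OPP replicate 3 the log2 change of Stat3 was -0.25 (limma adjusted p = 0.767), and over 20 alternative settings it ran from -0.48 to -0.25, with adjusted p from 0.433 to 1.00.

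Stat5a, a mediator of interleukin-2, prolactin and growth hormone signals, lay on the other side. Its signal was 52.7, 69.0, 50.5 and 57.7 on the control arrays and 69.6, 78.5 and 66.4 on the OPP arrays. Control replicate 2 stood above OPP replicate 3, and the other control arrays lay under every OPP array. The means were 57.5 ± 8.25 (SD, n = 4) and 71.5 ± 6.27 (SD, n = 3), a log2 change of 0.32 (SE 0.13, 95% interval 0.013 to 0.63, limma adjusted p = 0.513). The exact permutation p, two-sided, was 0.114. For Stat5b, the close paralog of Stat5a, the probe read -7.8 to 9.2 on the 7 arrays and was above background on none. Probe sequences were not used here, so whether the Stat5a probe also reads its paralog was not tested.

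Stat6, the factor of interleukin-4 and interleukin-13 signalling, had signals of 45.8, 56.9, 61.6 and 49.2 on the control arrays and of 65.4, 42.4 and 97.3 on the OPP arrays. OPP replicate 3 was the highest of the 7 and OPP replicate 2 the lowest. Its log2 change of 0.29 (SE 0.26, 95% interval -0.33 to 0.90, limma adjusted p = 0.754) became -0.0097 without OPP replicate 3 and 0.59 without OPP replicate 2. The second probe of Stat6 was below background on all arrays.

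**Figure D1:**
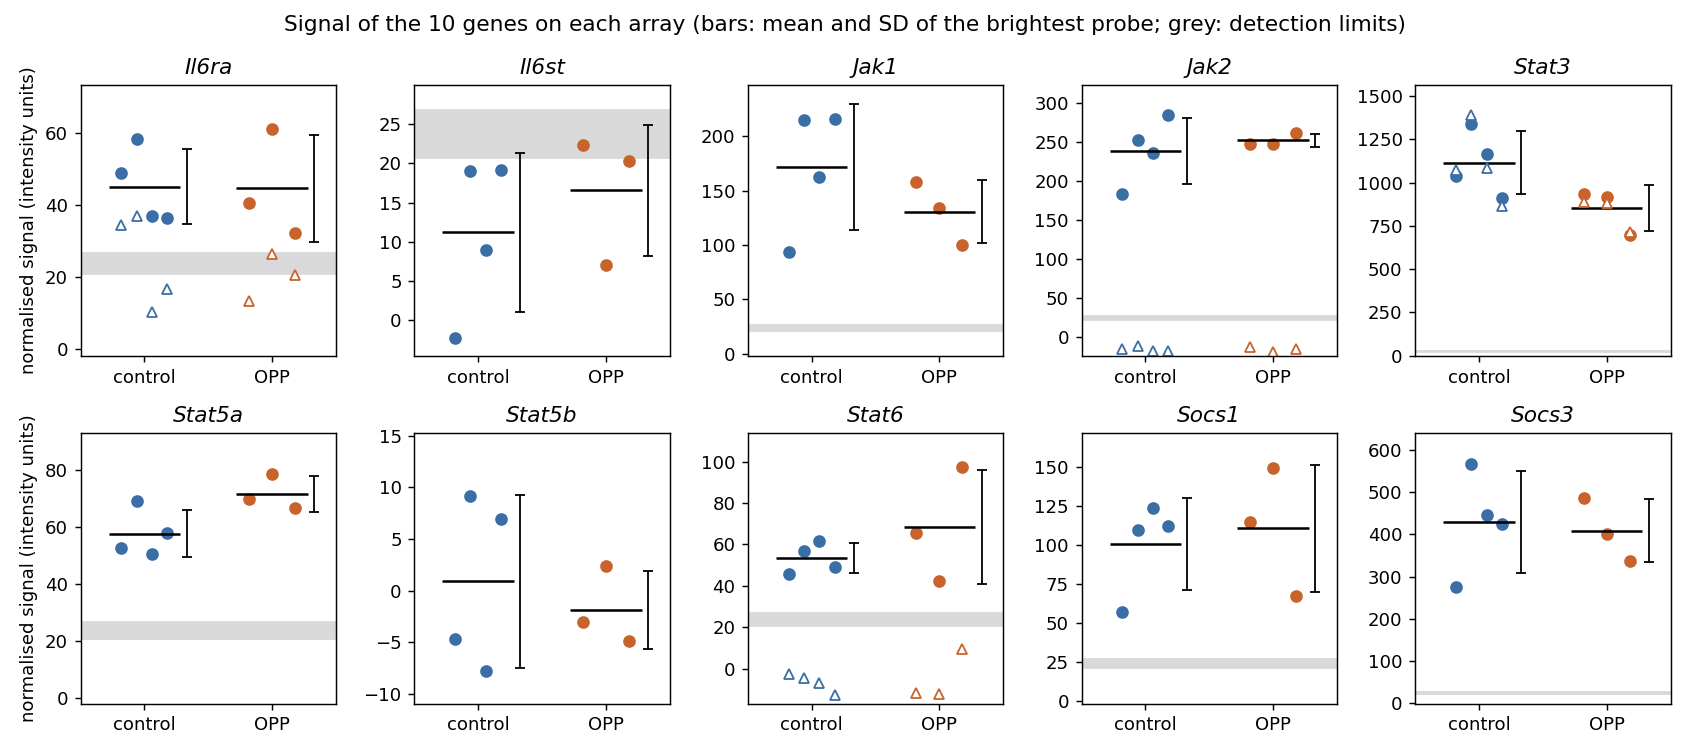
Normalised signal (intensity units, linear axis) of the 10 genes on the 4 control arrays (blue) and the 3 OPP arrays (orange). Filled circles are the brightest probe, open triangles a second probe, bars the mean and SD of the brightest probe, and the grey band the detection limits of the arrays. The groups overlap for every gene. Il6st and Stat5b lie in or under the band, and 1 OPP array of Il6st, inside the band, passes its own limit.

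Jak1, the kinase used by gp130 and by interferon receptors, varied most among the control arrays, whose SD exceeded the difference between the group means. Its signal was 94.0, 215, 162 and 216 on the control arrays and 158, 134 and 100 on the OPP arrays, so that control replicate 1 and OPP replicate 3 were the lowest. The means were 172 ± 57.6 (SD, n = 4) and 131 ± 29.3 (SD, n = 3), a log2 change of -0.34 (SE 0.31, 95% interval -1.07 to 0.38, limma adjusted p = 0.749). Without control replicate 1 the log2 change was -0.61 (limma adjusted p = 0.350), and without OPP replicate 3 it was -0.16. Jak2, which serves gp130 and the receptors of erythropoietin and growth hormone, had 239 ± 42.2 and 252 ± 8.09. Its log2 change of 0.096 (SE 0.15, 95% interval -0.26 to 0.45, limma adjusted p = 0.852) turned to -0.026 without control replicate 1, the lowest array at 183, and the other 6 arrays lay between 236 and 284.

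The receptor chains were dim. Il6ra, the chain that binds interleukin-6, had signals of 48.9, 58.3, 36.9 and 36.4 on the control arrays and 40.7, 61.1 and 32.1 on the OPP arrays by its brightest probe. The groups lay over each other (log2 change -0.039, SE 0.26, 95% interval -0.63 to 0.56, limma adjusted p = 0.967). The dimmer probe of Il6ra read 10.1 to 36.9 and was above background on 2 of 4 control arrays and on 0 of 3 OPP arrays. Il6st, the signalling chain gp130, had a single probe that read -2.2, 19.0, 8.9 and 19.1 on the control arrays and 22.3, 7.0 and 20.3 on the OPP arrays, and only OPP replicate 1 passed the limit of its array. No fold change is given for Il6st or Stat5b, whose signals were not above background.

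For Socs1 and Socs3, the feedback inhibitors that cytokine signalling induces, the group means lay closer together than 1 SD of either group. Socs3 had 273.9, 568, 447 and 426 on the control arrays and 487, 401 and 338 on the OPP arrays, with means of 429 ± 121 (SD, n = 4) and 408 ± 74.6 (SD, n = 3). Its log2 change was -0.038 (SE 0.25, 95% interval -0.62 to 0.54, limma adjusted p = 0.967). Socs1, induced by interferon gamma and interleukin-4, had 57.0, 109.6, 124 and 112 on the control arrays and 115, 149 and 67.4 on the OPP arrays. Its log2 change was 0.12 (SE 0.35, 95% interval -0.68 to 0.93, limma adjusted p = 0.924), and it turned to -0.13 without control replicate 1 and also without OPP replicate 2, and reached 0.88 with the mean of the muscle markers as a covariate (limma adjusted p = 1.00). Control replicate 1 and OPP replicate 3 were the lowest arrays of both genes, as they were for Jak1.

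STAT dimers bind DNA at palindromes of the form TTCNNNGAA, so these letters were searched in the window from 250 bases before to 50 after each annotated start, in the promoters of RefSeq for GRCm38.p6. The pattern reads the same on both strands. Of the 10 genes, which have 12 windows, Socs3 alone held it, beside 8.30% of 32851 windows of all genes, and the form with 4 bases in its gap was in 0 of the 12 and in 6.95% of all windows. In 90 windows of the other pathway genes listed below, the shares were 12.2% and 10.0%. Cish, shown here as an example, was 1 of 10 such genes that held TTCNNNGAA. Shown are 30 bases around the match in Socs3 (chr11:117969501-117969530, minus strand, first base of the match 154 bases before the start, in a window that lies inside the annotated gene span, which reaches further upstream) and 30 bases of Cish (chr9:107296655-107296684, plus strand), a feedback inhibitor known as a Stat5 target, whose window holds a pair of matches that begin at bases 1 and 12 counted from the annotated start as base 1; capitals mark the pattern.
Socs3: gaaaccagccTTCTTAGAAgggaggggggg
Cish: agttTTCCTGGAAagTTCTTGGAAatctgt
A match is a description of the letters and no evidence of binding. Beside them, neither Socs3 (above) nor Cish passed the test: Cish had signals of 55.2, 75.3, 112 and 105 on the control arrays and 73.2, 106 and 47.1 on the OPP arrays, a log2 change of -0.22 (SE 0.33, limma adjusted p = 0.846).

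The genes around the 10 in the pathway were counted from lists of general knowledge, 100 genes in all, of which 93 had a named probe and 59 were tested. None passed after adjustment in limma, and 3 had an unadjusted p under 0.05 (5.08%), Stam and Bcl2l1 upward and Sh2b3 downward in OPP tumours, beside 8.46% of 7188 named genes (4.67% upward and 3.78% downward). The log2 changes of the 59 had a median of 0.019, with 31 above 0 and 28 below. Ligands of the gp130 family were at or near background in both groups: of 8 genes with 10 probes, 0 passed the filter, and only Ebi3 and Il6 exceeded the limit on any array. The Il6 probe read 33.8, 23.5, 21.1 and 17.3 on the control arrays, with replicates 1 and 2 above background, and 8.9, 18.2 and 5.8 on the OPP arrays, with none above. Il11, Lif, Cntf, Ctf1, Clcf1 and Il27 were below background on every array.

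Other receptors that signal through Janus kinases numbered 12 tested of 27, 3 above 0 and 9 below, with a median log2 change of -0.067 and 0 at an unadjusted p under 0.05. Ghr, the growth hormone receptor, had 57.7, 70.9, 122 and 195 on the control arrays and 53.9, 40.3 and 64.2 on the OPP arrays (log2 change -0.94, SE 0.41, limma adjusted p = 0.535). Il10ra, a chain of the interleukin-10 receptor, had a log2 change of -0.70 (SE 0.57), Osmr, the oncostatin M receptor, one of 0.26 (SE 0.20), and Il13ra1, which pairs with the interleukin-4 receptor, one of 0.26 (SE 0.18). Adjusted p in limma ran from 0.535 to 0.997 over the 12. Of the other Janus kinases and STATs, Jak3, the kinase of the common gamma chain, had log2 changes of -0.37 by its brighter probe and 0.37 by its dimmer one, and Tyk2 had -0.037 and 0.24 by its brighter and dimmer probes. Stat4, which interleukin-12 activates, had a log2 change of -0.32 (SE 0.18, limma adjusted p = 0.618), and Stat2, a factor of interferon signalling, was above background on 3 of 4 control and 2 of 3 OPP arrays and was not tested.

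**Figure D2:**
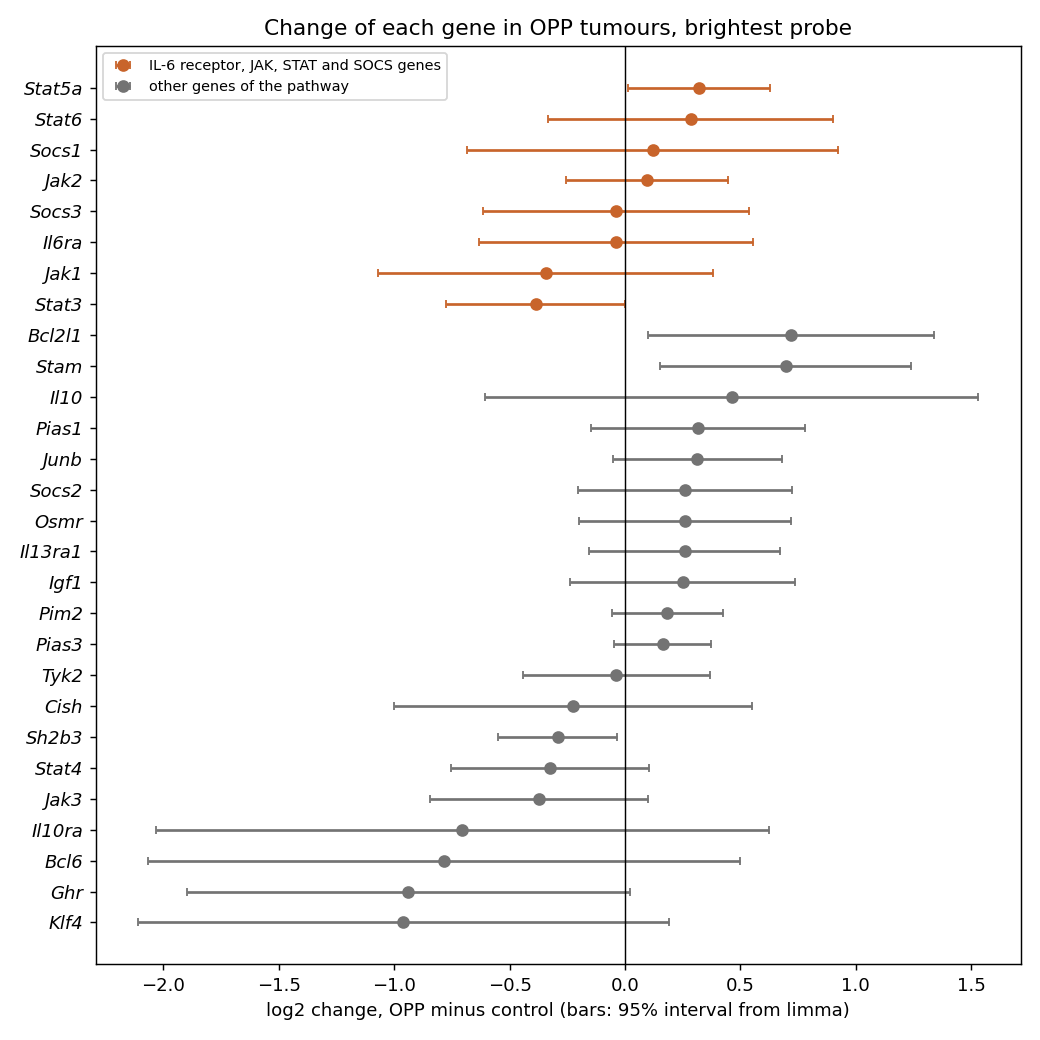
Log2 change (OPP minus control, brightest probe) of the 8 tested genes (orange) and of other named genes of the pathway (grey), with 95% intervals from limma. The intervals of Stat5a, Stam, Bcl2l1 and Sh2b3 leave out 0 before any adjustment, and that of Stat3 ends at 0.00036.

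Among 16 tested inhibitors, PIAS proteins, phosphatases and adaptors of 19, 11 lay above 0 and 5 below, and Stam and Sh2b3 had an unadjusted p under 0.05. Stam, an adaptor that binds Janus kinases and sorts receptors at endosomes, read 20.8 to 41.2 on the control arrays and 45.0 to 58.9 on the OPP arrays, without overlap, as for 9.10% of 7188 named genes (log2 change 0.70, SE 0.23, limma adjusted p = 0.461). With values under 50 set to 50 this became 0.079, since most of its signals lie under 50. Pias3, which inhibits Stat3 on DNA, also did not overlap, with 314 to 327 on the control arrays and 340.1 to 394 on the OPP arrays by its brighter probe (log2 change 0.16, SE 0.091, limma adjusted p = 0.609), but its dimmer probe overlapped, with a log2 change of -0.050 (SE 0.13). Sh2b3, an adaptor that restrains Jak2, had 246 ± 17.4 (SD, n = 4) and 201 ± 22.1 (SD, n = 3), a log2 change of -0.29 (SE 0.11, limma adjusted p = 0.491). Pias1, another PIAS protein, had a log2 change of 0.32 (SE 0.20) and Socs2, an inhibitor of growth hormone signalling, one of 0.26 (SE 0.20).

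Of 28 target genes known for Stat3 from other work, 24 were tested, 13 above 0 and 11 below, with a median log2 change of 0.029 and 1 at an unadjusted p under 0.05. That gene was Bcl2l1, which encodes the survival protein Bcl-xL: it read 29.7, 56.4, 32.1 and 26.3 on the control arrays and 49.9, 69.1 and 52.9 on the OPP arrays, a log2 change of 0.72 (SE 0.27, limma adjusted p = 0.485), by 1 of its 3 probes, the others not being tested. With values under 50 set to 50 it became 0.14, and the unadjusted calls of both Bcl2l1 and Stam were lost. Junb, an AP-1 subunit, had a log2 change of 0.31 (SE 0.16), the kinase gene Pim2 one of 0.18 (SE 0.10) and the transcription factor gene Klf4 one of -0.96 (SE 0.49), all with limma adjusted p over 0.5. By its dimmer tested probe Pim2 had a log2 change of 0.034 (SE 0.15). Targets known for Stat5 or Stat6, 11 tested of 21, lay 7 above and 4 below 0, with a median of 0.037 and 0 at an unadjusted p under 0.05. Among them Bcl6, a repressor of plasma cell differentiation, had a log2 change of -0.78 (SE 0.55), Igf1, insulin-like growth factor, one of 0.25 (SE 0.21) by its brighter probe and 0.057 (SE 0.26) by its dimmer one, and Il10 one of 0.46 (SE 0.46), or 0.042 with values under 50 set to 50.

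Across the 7 arrays the 3 genes Jak1, Socs1 and Socs3 shared an order that the groups did not set: control replicate 1 and OPP replicate 3 were the lowest of the 7 for each. This pair of arrays was singled out after the values were seen. It was the lowest pair for 3 of the 8 tested genes and for 14 of the 59 other pathway genes (23.7%), beside 11.9% of 7188 named genes. Most tested leukocyte markers in the tumours moved with it. The pair was lowest for 7 of 8 tested T and NK cell markers (of 16 listed) and for 6 of 8 tested macrophage markers (of 12 listed). The exceptions were Klrb1c, Lyz2 and Mrc1. Mrc1 read 297 on control replicate 1, its highest array, and 274 on OPP replicate 3. In the fibroblast, endothelium, muscle, adipocyte and plasma cell lists the pair was lowest for 0 tested genes. The summed signal of the T and NK cell list was 1146 on control replicate 1 and 797 on OPP replicate 3. It was 3291 to 4134 on the other control arrays and 1995 to 2505 on the other OPP arrays. Of the sums on the pair, Cd2 alone gave 906 and 677, and it read 933 to 1182 on the other arrays. Cd3e, a chain of the T cell receptor complex, read 21.6 and -2.3 on the pair. Of the 12 tested receptor genes outside the 10, the pair was lowest for 6, among them Il10ra, which read 29.0 or less on these arrays and 63.3 to 141 on the rest. Ptprc, the leukocyte phosphatase CD45, read 54.4 and 63.8 against 146 to 331, while Ptpn6, the leukocyte phosphatase SHP-1, was lowest on control replicate 4. In bulk tumour RNA, fewer cells of a type and less RNA per cell cannot be told apart. With the mean of the T and NK cell markers as a covariate the log2 changes were 0.019 for Jak1, 0.23 for Socs3, 0.52 for Socs1, -0.28 for Stat3 and 0.39 for Stat5a, with adjusted p from 0.586 to 0.983 in limma for these genes; without both arrays they were -0.43, -0.11, 0.19, -0.28 and 0.34 in the same order.

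**Figure D3:**
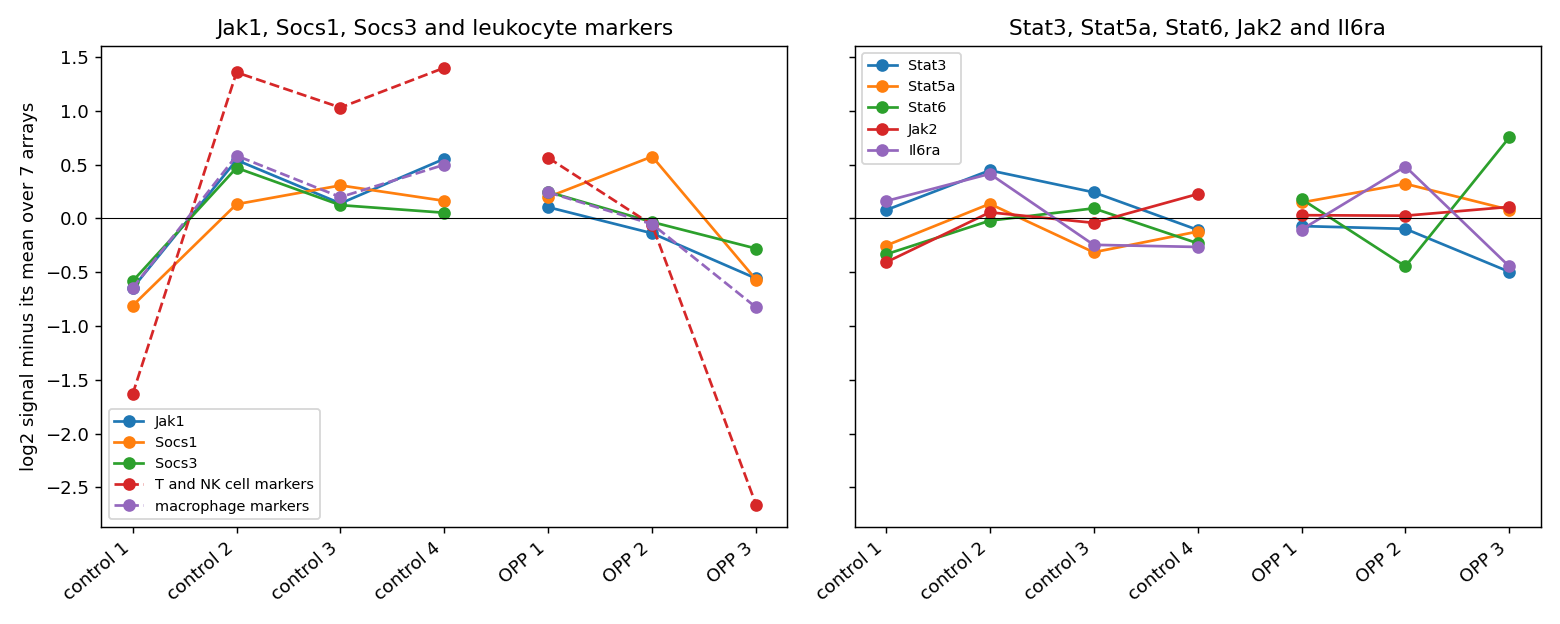
Log2 signal of each tested gene minus its mean over the 7 arrays (log2 units), with the mean of 8 T and NK cell markers and of 8 macrophage markers as dashed lines. Lines join arrays of a group for the eye only, since replicates have no order; Jak1, Socs1 and Socs3 are lowest on control replicate 1 and OPP replicate 3, as the leukocyte markers are, while Stat6 is highest on OPP replicate 3.

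Skeletal muscle markers moved with the groups. All 14 tested of 21 listed were lower in OPP tumours at an unadjusted p under 0.05 in limma (0 after adjustment). Over 7188 named genes 3.78% were lower by that measure. Of the 14, only Mylpf and Acta1 were above background on every OPP array. The others entered the test through the control arrays, where they were high, so the filter partly set this count. The summed signal of the 14 was 8176 to 36535 in control and 186 to 5937 in OPP tumours. Stat3 was lowest among the control arrays on replicate 4, which had the highest muscle sum. With the muscle score as a covariate the log2 change of Stat3 was -0.48 (limma adjusted p = 1.00), while that of Stat5a was 0.43. The muscle sums of the groups did not overlap, so muscle content and OPP cannot be told apart in this fit. Of the adipocyte list, 4 tested of 9 summed to 737 to 2723 in control and 409 to 847 in OPP tumours, and 2 of the 4, Car3 and Adipoq, were lower at an unadjusted p under 0.05 with log2 changes of -1.64 and -1.49. The summed signal of 12 tested plasma cell markers of 13 was 53091 to 61017 in control and 56579 to 60176 in OPP tumours, led by Pou2af1 and Xbp1. Of these 12 genes 6 had a log2 change above 0 and 6 below. Creb3l2 was higher without overlap (log2 change 0.77, limma adjusted p = 0.415). Mzb1 and Tnfrsf17 were lower, with log2 changes of -0.93 (limma adjusted p = 0.671) and -0.36 (limma adjusted p = 0.62). Sdc1, a surface marker of plasma cells, was above background on all arrays, as were Pou2af1 and Xbp1. Mzb1 was above background on 2 of 3 OPP arrays and read 9.0 on OPP replicate 3. The lists of fibroblasts (10 tested of 12) and endothelium (6 of 10) had 0 genes at an unadjusted p under 0.05. Of 11 neutrophil markers 0 were tested, 6 of them below background on every array and 5 above it on at most 5 arrays. Among those 5, S100a8 and S100a9 read 494 and 651 on control replicate 2, beside 2.9 to 98.6 on the other arrays.

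The pattern of Stat3 over the 7 arrays was most like that of Cmas, an enzyme that activates sialic acid (Pearson r = 0.97), of Mtmr14, a lipid phosphatase (r = 0.96), and of Msantd3 (r = 0.96), the 3 highest of 7188 named genes outside the 10, beside r = 0.98 between the probes of Stat3. These values are a description over the same 7 arrays, and the highest of many genes are high by selection.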

How the data were processed

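Tumour RNA of 4 control and 3 OPP samples was read on Illumina MouseRef-8 bead arrays. The deposited values are linear intensities from BeadStudio 1.5.1.3, for which the authors subtracted background, removed outlier samples and applied rank invariant normalisation. A table before normalisation was not used, since its 14 columns match no sample by name. Left out of 24048 probes were 66 that had no value and 4 bacterial controls. Each array's noise was estimated from its values below 0. Of 23978 probes 10366 were tested, for 7188 named genes, each gene by its brightest probe. Tests used limma 3.58.1 (lmFit, then eBayes; R 4.3.3), two-sided, with Benjamini-Hochberg adjustment over all tested probes, after a trial on simulated data. The authors had chosen RNA samples of high integrity. Their Illumina error model was not held. A stand-in and other normalisations, floors, filters, priors, weights, a replicate block and left-out arrays were tried. The number of arrays limits the precision. Genes were named by rule: all 10 genes, the 4 smallest p-values of each pathway list with preset others, and the 3 genes nearest to Stat3 over the arrays. Ptprc, Cd3e, Sdc1, Fos, Csf3r, Il2rb, Il12rb1, Ptpn6, Creb3l2, Mzb1, Tnfrsf17, S100a8, S100a9, Klrb1c, Mrc1, Mylpf, Pim1 and ligands outside the rule were added after their values were seen. The 10 genes, lists and alternatives were chosen with earlier results of these data known. Other software was Python 3.11.15, pandas 2.3.3 and matplotlib 3.10.9.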

Additional observations from a re-analysis of the deposited data

Results flagged for a closer look

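In 3 of 28 named genes control replicate 1 stood apart from the other 3 control arrays on the log2 scale by Dixon's ratio, its gap to the nearest array over the range of the group. The ratio was 0.844 for Socs1, which read 57.0 there and 109.6 to 124 on the others. It was 0.891 for Bcl6, which read 34.5 there and 122 to 142 on the others. For Jak3 it was 0.833 by the brighter probe, which read 128 there and 169 to 178 on the others. The dimmer probe of Jak3 did not stand apart there, with 59.5 beside 45.3 to 75.8 on the others. On the linear scale no gene passed the critical value, and chance alone marks about 1 group in 20.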

How the results depend on the processing

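Over 20 alternatives, 2 of them (mean T and NK cell markers or mean muscle markers as a covariate) chosen after seeing the data, no probe of the 10 genes and none of the 59 other pathway genes reached an adjusted p under 0.05. At an unadjusted p under 0.05 the count of probes of the 10 genes, 1 as reported, was 2 with quantile normalization, the trended and robust prior, the error-model test, averaged probes per gene and the T and NK cell covariate, 3 with median scaling, detection on all 7 arrays and array weights, and 0 with no detection filter, with the muscle covariate and without both control replicate 1 and OPP replicate 3. The 59 other genes had 6 without both arrays. Over all probes, those with an adjusted p under 0.05, 0 as reported, numbered 2 with quantile normalization, 2 with a floor of 50, 1 with the trended and robust prior, 40 with the error-model test, 2 without both arrays and 1 with the T and NK cell covariate, and 465 probes had an unadjusted p under 0.05 with the muscle covariate, beside 970. Leaving out 1 array gave 0 to 2 probes of the 10 genes, 0 to 10 of the 59 genes (10 without control replicate 1, 8 without OPP replicate 1, 5 without control replicate 2, 1 without control replicate 3 and 0 without OPP replicate 3, beside 3) and 0 to 4 probes over the whole array, 4 of them without OPP replicate 2. The cause of these shifts was not tested.

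Deviations of same-numbered arrays from their group means correlated at -0.27, 0.08 and -0.17, and 0 of 6 arrays correlated best with its own number. The labels name no pairing, and so few arrays cannot show whether same-numbered samples shared more than a number. With the replicate block 3 probes of the 10 genes and 6 of the 59 other genes had an unadjusted p under 0.05, and 683 probes over the whole array.

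Stat3 and Stat5a kept their direction under all 20 alternatives, with an unadjusted p under 0.05 in 9 and 10 of them. Il6ra turned to 0.041 with a floor of 50, 0.077 with array weights, 0.22 without both arrays, 0.032 with the T and NK cell covariate and 0.15 with the muscle covariate. With averaged probes per gene Jak3 came to 0.00065 and Tyk2 to 0.10. Without both arrays Jak2 was -0.053 and Stat6 -0.080. With the T and NK cell covariate Socs3 was 0.23, Jak1 0.019, Tyk2 0.12 and Cish 0.11. With the muscle covariate Stat6 was -0.20, Il10ra 0.26, Klf4 0.73 and Cish 0.70, while Socs1 was 0.88, beside 0.12. Muscle signal did not overlap between the groups, so values with the muscle covariate cannot separate muscle content from OPP. Leaving out 1 array moved Il6ra from -0.29 to 0.17, Jak2 from -0.026 to 0.19, Socs1 from -0.13 to 0.44, Socs3 from -0.24 to 0.11, Stat6 from -0.0097 to 0.59, Tyk2 from -0.17 to 0.046 and Cish from -0.51 to 0.077. It moved others by over 1.5 times with no change of sign: Pias1 (0.057 to 0.48), Socs2 (0.075 to 0.50), Pias3 (0.096 to 0.20), Junb (0.14 to 0.42), Igf1 (0.075 to 0.34), Il10 (0.22 to 0.90), Osmr (0.13 to 0.40), Il13ra1 (0.16 to 0.43), Bcl6 (-1.28 to -0.48), Klf4 (-1.47 to -0.59), Ghr (-1.20 to -0.61), Il10ra (-1.21 to -0.33), Jak3 (-0.59 to -0.22), Stat4 (-0.45 to -0.18), Stat3 (-0.48 to -0.25) and Jak1 (-0.61 to -0.16). Signals of Il6ra, Stat5a and Stat6 lay within a few times the detection limit, which limits their precision.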

Other observations

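Among the 14 of 59 other pathway genes for which control replicate 1 and OPP replicate 3 were the lowest arrays, several had large gaps. Fos, an AP-1 subunit induced by cytokines and growth factors, read 187 on control replicate 1 and 217 on OPP replicate 3, beside 348 to 618 on the other arrays. Bcl6 read 34.5 and 36.4 on the same arrays, beside 51.4 to 142 on the rest. Csf3r, the receptor of granulocyte colony-stimulating factor, read 36.6 and 33.7, beside 65.9 to 128, and Il2rb, a chain of the interleukin-2 receptor, read 27.2 and 35.3, beside 50.3 to 75.9. Others of like kind went another way in whole or in part. Junb, also an AP-1 subunit, was highest on OPP replicate 3, at 275 beside 157 to 197. Il12rb1, a chain of the interleukin-12 receptor, was also lowest on OPP replicate 3, at 24.6. It read 45.4 on control replicate 1 and 37.5 on control replicate 2. None of these genes differed between the groups after adjustment in limma.

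Jak1 and Socs1 varied across the 7 arrays with an SD of 0.48 and 0.50 in log2 signal, beside a median of 0.19 over 7188 named genes, and a larger SD was found for 9.06% and 8.39% of these genes. Jak2 had 0.20, with a larger SD for 46.3% of them.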
